A study of Homo sapiens with 35 samples.

Results

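The 39 genes described here encode proteins of mitosis: the kinases, cyclins and phosphatases of mitotic entry, the spindle checkpoint, the centromere and kinetochore, spindle motors and microtubule-binding proteins, the machinery of anaphase onset and of cytokinesis, and 2 proteins of mitotic chromosomes. They were taken by gene name from a table of raw read counts that holds 60665 genes. They were chosen with earlier results of these data known. All 39 were among the 19275 genes that passed the filter on low counts. The study sequenced total RNA, freed of ribosomal RNA, in 35 libraries of HEK293T, a widely used human cell line that derives from embryonic kidney and cycles continuously. Its title concerns gene-specific transcription regulation by the Integrator complex, of which INTS13 is a subunit. Transcription regulators were depleted for 72 h with siPOOLs, defined pools of small interfering RNAs, at 5 nM. Libraries held 16766673 to 50790278 counts, and levels are given as CPM, counts per library total scaled by TMM factors.

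The libraries fell into 3 sets by their replicate numbers and, for ZMYND8, by the label of its controls. In the first, called the starvation set here and numbered 3 and 4, INTS13, HDGF and ZNF655 were each depleted in 2 libraries with glucose, INTS13 and HDGF were also depleted in 2 libraries each under glucose starvation for 24 h, and cells with a control siPOOL gave 4 starved and 4 fed libraries. The labels name no control for ZNF655, which was compared with these 4 fed controls. In the set numbered 1 and 2, TSPYL2, ZEB1, ZNF608, ZNF609 and ZNF687 were depleted in 2 libraries each and compared with 3 control libraries. ZMYND8 depletion had 2 libraries and 2 controls labelled for it, which are also numbered 3 and 4 and were kept as a set of their own. Every group carried an siPOOL, the controls included. The labels do not state whether replicates are cultures grown apart; the p-values therefore reflect library-to-library spread, which may be technical.

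Each depleted gene was lower in its own libraries, at 8.36% (HDGF), 13.9% (INTS13), 32.4% (ZEB1), 35.3% (ZNF687), 42.6% (TSPYL2), 47.1% (ZNF655), 48.5% (ZNF609), 52.1% (ZMYND8) and 56.1% (ZNF608) of its control level. The embryonic and cytoskeletal genes LIN28B (107 to 257 CPM) and VIM (316 to 729 CPM) were present in all 35 libraries, whereas PTPRC, ALB, COL1A2 and PECAM1, markers of blood cells, hepatocytes, fibroblasts and endothelium, stayed at or below 0.237 CPM. The kidney developmental gene PAX2 was low, at 0.247 to 2.07 CPM. In the set numbered 1 and 2, libraries numbered 1 stood apart: ribosomal protein genes took 9.91% to 15.8% of their reads, against 7.11% to 9.67% in the libraries numbered 2.

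Mitotic genes are transcribed in waves that peak in G2 and M phase. Their promoters are known to carry the cell cycle genes homology region (CHR), which binds the MuvB core shared by the DREAM repressor and by the activators B-MYB and FOXM1, and CCAAT boxes, which bind NF-Y. The p53 target CDKN1A, an inhibitor of cyclin-dependent kinases, is known to favour the repressor. Whether that route acts in HEK293T was not tested here. In cycling cells, cyclin B with CDK1 drives entry into mitosis, the checkpoint holds anaphase until every chromosome is attached, and CDC20 with the anaphase-promoting complex then starts the destruction of cyclin B and securin. In bulk RNA, fewer cells in G2 and M phase and less RNA per cell cannot be told apart.

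RefSeq promoter windows (GRCh38.p14, 250 bases before to 50 after the start, first listed entry per gene) were found for 32 of the 39 members. AURKA, BUB3, TPX2, TTK, UBE2C, BIRC5 and NEK7 had no matching entry. Each window was searched on both strands for TTTGAA and TTTAAA, the usual spellings of the CHR, and for CCAAT, with overlapping matches counted. A CHR spelling stood in 25 of 32 windows (78.1%), against 24.3% of the 27305 promoter windows of all genes. TTTGAA was in 20 (62.5%, against 15.4% of all) and TTTAAA in 12 (37.5%, against 12.3%). CCAAT was in 23 (71.9%, against 35.7%), and a CHR spelling together with CCAAT in 19 (59.4%, against 9.49%). In 18 windows a CHR spelling began between 60 bases before and 10 bases after the start.

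**Figure D1:**
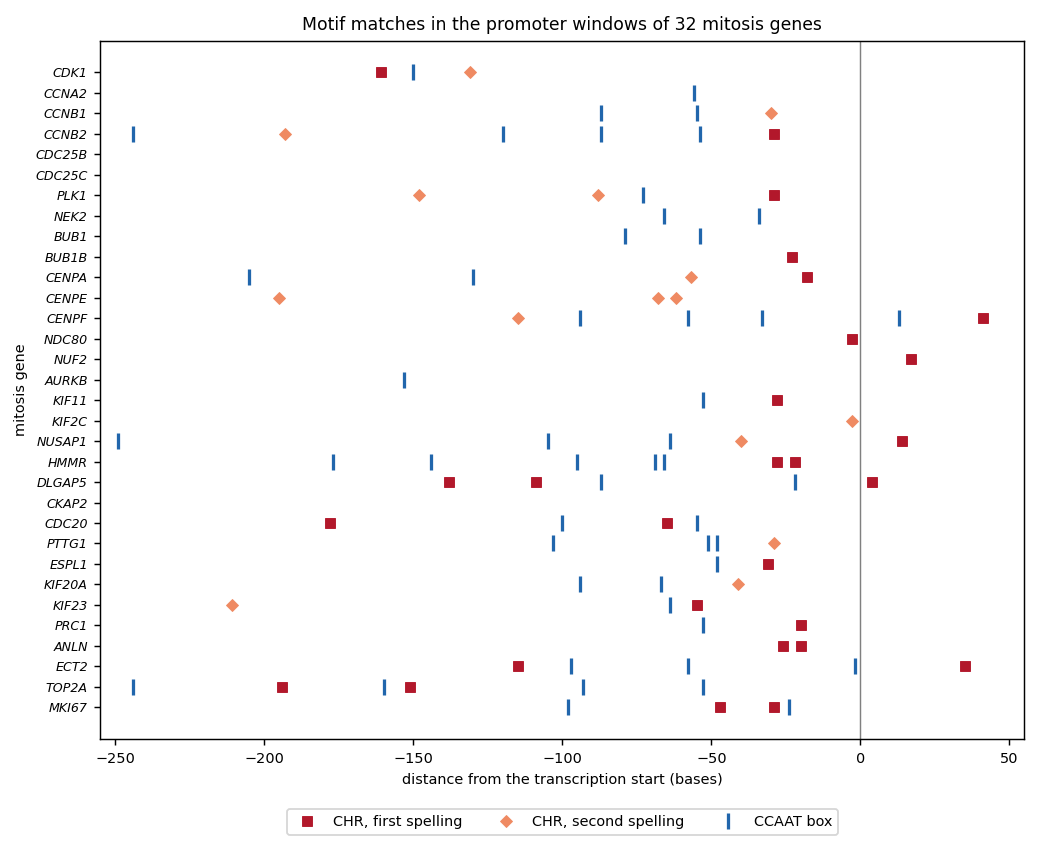
Matches to the CHR spellings (squares TTTGAA, diamonds TTTAAA) and to CCAAT (bars) in the promoter windows of 32 mitosis genes, by distance in bases from the transcription start; the vertical line marks the start. In 18 windows a CHR match begins between 60 bases before and 10 bases after the start, and CCAAT matches mostly lie upstream of it.

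6 windows of members that were lower after INTS13 depletion show the arrangements found, 5′ to 3′ along the gene, with CHR spellings and CCAAT boxes of either strand in capitals. BUB1B, at chr15:40160819-40161118 (plus strand), has a lone TTTGAA and no CCAAT.
BUB1B: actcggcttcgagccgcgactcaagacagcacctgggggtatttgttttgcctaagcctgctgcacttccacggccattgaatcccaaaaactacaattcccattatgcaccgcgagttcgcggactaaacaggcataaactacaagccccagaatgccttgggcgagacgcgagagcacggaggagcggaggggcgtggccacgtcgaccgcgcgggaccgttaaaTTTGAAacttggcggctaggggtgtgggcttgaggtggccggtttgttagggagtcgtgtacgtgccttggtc
CDC20, at chr1:43358731-43359030 (plus strand), has a downstream TTTGAA between CCAAT boxes and a second, reversed match far upstream.
CDC20: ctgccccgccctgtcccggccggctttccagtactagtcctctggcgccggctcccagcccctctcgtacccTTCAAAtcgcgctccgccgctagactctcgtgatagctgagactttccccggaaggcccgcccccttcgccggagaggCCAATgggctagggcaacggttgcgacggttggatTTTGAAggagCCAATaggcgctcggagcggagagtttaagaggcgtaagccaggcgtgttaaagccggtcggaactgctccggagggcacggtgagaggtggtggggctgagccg
CENPA, at chr2:26785806-26786105 (plus strand), has both CHR spellings near the start.
CENPA: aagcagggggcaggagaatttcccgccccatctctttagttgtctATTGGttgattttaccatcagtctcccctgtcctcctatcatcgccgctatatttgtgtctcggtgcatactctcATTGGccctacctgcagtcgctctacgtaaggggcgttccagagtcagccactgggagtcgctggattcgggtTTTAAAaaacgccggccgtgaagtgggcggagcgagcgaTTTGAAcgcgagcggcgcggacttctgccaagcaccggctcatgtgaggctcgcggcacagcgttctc
PRC1, at chr15:90994486-90994785 (minus strand), has 1 CCAAT followed by 1 TTTGAA.
PRC1: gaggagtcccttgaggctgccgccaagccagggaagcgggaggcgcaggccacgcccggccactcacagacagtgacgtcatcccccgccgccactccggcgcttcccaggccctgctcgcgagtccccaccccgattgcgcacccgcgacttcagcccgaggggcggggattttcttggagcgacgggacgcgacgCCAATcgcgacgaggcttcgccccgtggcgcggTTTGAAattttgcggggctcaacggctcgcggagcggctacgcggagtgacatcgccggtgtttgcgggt
KIF2C, at chr1:44739587-44739886 (plus strand), has TTTAAA only.
KIF2C: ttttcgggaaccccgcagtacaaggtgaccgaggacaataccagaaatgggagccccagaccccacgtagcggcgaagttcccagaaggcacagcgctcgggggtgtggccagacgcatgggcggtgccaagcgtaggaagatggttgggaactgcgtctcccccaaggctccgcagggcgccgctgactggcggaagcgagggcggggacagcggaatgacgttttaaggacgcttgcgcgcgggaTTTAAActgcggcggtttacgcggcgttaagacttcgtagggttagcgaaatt
BUB1, at chr2:110678014-110678313 (minus strand), has a pair of CCAAT boxes and neither CHR spelling.
BUB1: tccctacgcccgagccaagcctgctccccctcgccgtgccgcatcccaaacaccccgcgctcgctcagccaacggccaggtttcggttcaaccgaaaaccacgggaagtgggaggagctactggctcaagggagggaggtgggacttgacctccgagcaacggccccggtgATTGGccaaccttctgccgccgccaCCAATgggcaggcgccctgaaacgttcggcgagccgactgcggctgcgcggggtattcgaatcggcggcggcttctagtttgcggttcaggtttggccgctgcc
TTTGAA or TTTAAA was thus not in the window of every member that fell. Other spellings of the CHR were not searched, so a window without a match may still hold one. Only the window of the first listed entry was searched, so a site outside it, or at another start of the gene, was not counted. A match was in 6 of the 9 windows of members lower after INTS13 depletion (66.7%) and in 19 of the 23 windows of the other members (82.6%). For ZNF655 depletion the counts were 4 of 6 (66.7%) and 21 of 26 (80.8%), and for starvation 11 of 13 (84.6%) and 14 of 19 (73.7%). A match is a description of letters, not of a bound site.

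Levels of the members differed widely in the fed controls of the starvation set. Per kilobase of exon, CCNB1 was highest at 123 CPM per kb, followed by UBE2C at 112, CDC20 at 97.3, CCNA2 at 86.1 and TOP2A at 80.4 CPM per kb. Except for 2 members, the lowest were CDC25C at 9.35, CDC25B at 9.88 and CENPE at 10.7 CPM per kb. The exceptions were PRC1 at 1.20 and NUSAP1 at 0.22 CPM per kb. PRC1 had 81 to 268 counts per library and NUSAP1 5 to 27. PRC1 shares its span and strand with AC068831.8, which had 215 to 614 counts per library, and NUSAP1 shares its own with AC087721.2, which had 0. How the authors' counting assigned reads in shared exons is not given in the sources used here, so the values of both members are uncertain. In the GENCODE annotation CENPA also shares exon bases with SLC35F6 (750 to 2584 counts per library) and BUB1B with BUB1B-PAK6 (0 to 1), both on the same strand. CCNA2, CDC25C, PLK1, KIF20A, KIF23, KIF2C, HMMR, NUF2, ANLN and PRC1 share exon bases with genes on the opposite strand.

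3 comparisons of the starvation set moved many members, all downward. After INTS13 depletion 11 of 39 members fell and none rose (28.2% of members; 6.23% of all tested genes fell and 6.53% rose), with a median member log2 fold change of -0.27 against 0.0097 over all genes. After ZNF655 depletion 7 fell and none rose (17.9%, where 4.88% of all genes fell and 6.57% rose; member median -0.19, all genes 0.016). In starved against fed controls 15 fell and none rose (38.5%, where 8.05% of all genes fell and 8.77% rose; member median -0.24, all genes 0.005). The falls were modest: the called members retained 67.9% to 85.0% of the control level after INTS13 depletion, 80.2% to 86.2% after ZNF655 depletion and 57.1% to 89.7% after starvation. Calls are adjusted p-values under 0.05 in edgeR's quasi-likelihood test, adjusted over all 19275 genes. These comparisons share the same 4 fed controls, so they are not independent of each other.

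The direction was broader than the calls. After INTS13 depletion 38 of 39 members had a log2 fold change below 0, as did 48.8% of all genes. For 34 members both depleted libraries lay below all 4 controls, where 22.6% of all genes did so. After ZNF655 depletion 33 were below 0 (48% of all genes), 27 lay below the controls without overlap and 3 above (22% and 21.5% of all genes). After starvation 36 were below 0 (49.3% of all genes) and 26 lay below without overlap (15.2% of all genes). BUB1, BUB1B, KIF23, BIRC5 and NEK2 fell in all 3 comparisons. Of the 19 members that fell in at least 1 of them, 3 (CDC25C, CENPA and PRC1) were called after INTS13 depletion alone and 7 (CCNB1, CENPE, DLGAP5, KIF11, KIF20A, ANLN and ECT2) after starvation alone. A call in 1 comparison and not in another does not show that the 2 differed. With 1 library left out, the INTS13 calls of CDC25C, CENPA and PRC1 were kept in 1, 4 and 2 of 6 runs.

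**Figure D2:**
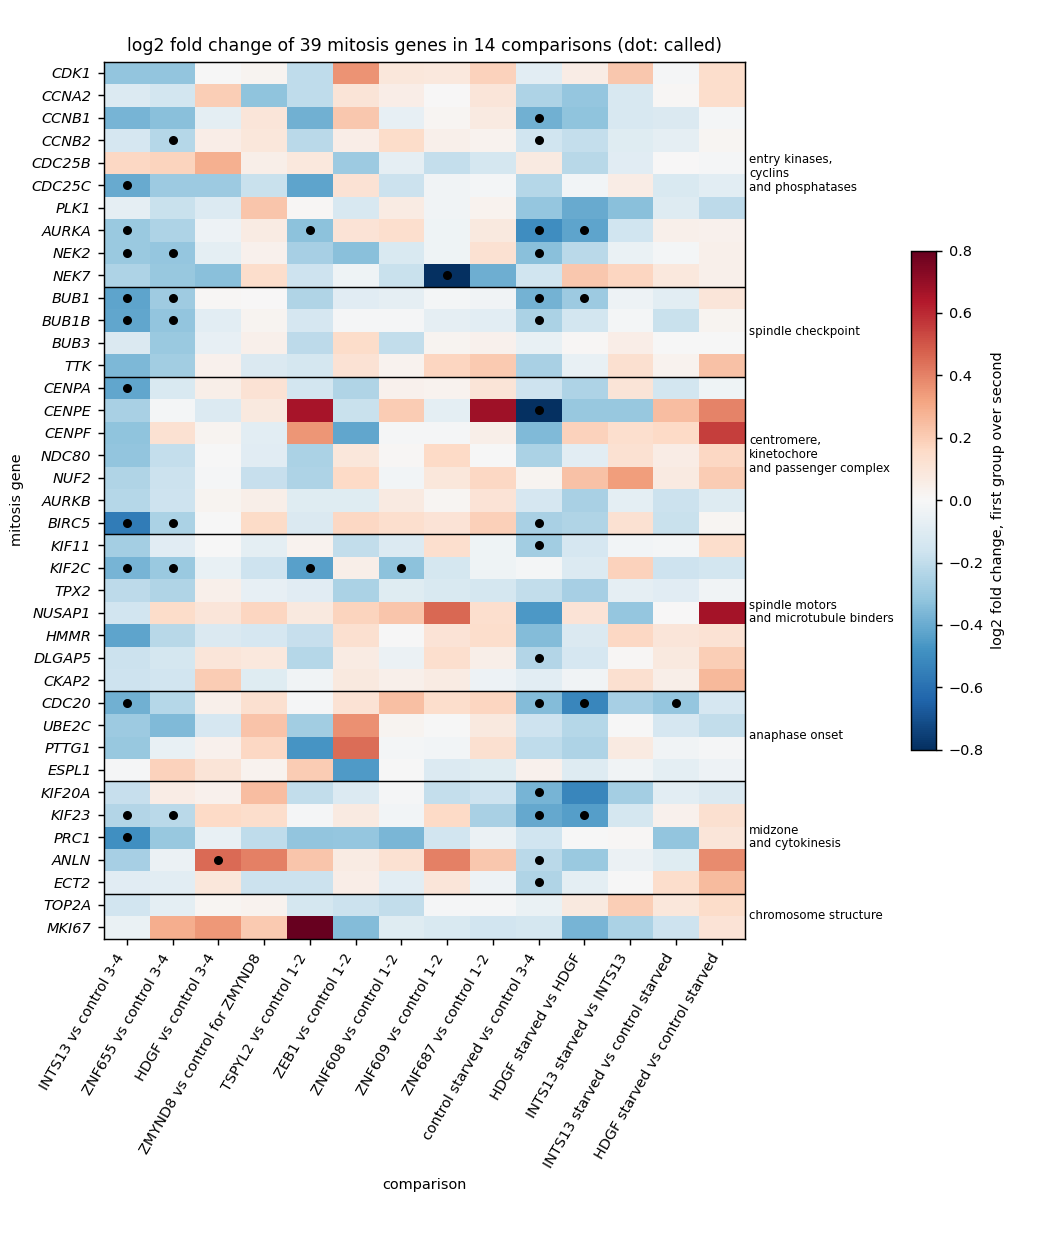
log2 fold change (colour, limits at -0.8 and 0.8) of the 39 mitosis genes (down the page, by role) in 14 comparisons (across; first group over second); a dot marks a called change. Control 1-2 is the control of the set numbered 1 and 2, and control 3-4 that of the starvation set. The INTS13, ZNF655 and starved control columns are blue for most members, with 11, 7 and 15 dots.

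The call counts depended on which libraries set the spread. With the libraries of the starvation set alone, 25 members fell after INTS13 depletion, 19 fell and 2 rose after ZNF655 depletion, and 27 fell after starvation. The share of all genes called in that fit is not given here, so these counts do not show a stronger change of the members. With either of the INTS13 libraries left out 4 members were called (BUB1, BUB1B, KIF2C and BIRC5, which kept the call in every alternative run for them). For ZNF655 the count was 1 without its replicate 3, 3 without its replicate 4, 4 without control 3b, 3 without control 4a and 0 with no filter on low counts, so no single ZNF655 call held throughout. For starvation it was 11 to 15 with any 1 library left out and 3 when the a and b control libraries of a number were summed, with AURKA, BUB1 and KIF23 kept.

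Among the 10 genes of mitotic entry, AURKA, CDC25C and NEK2 fell after INTS13 depletion, CCNB2 and NEK2 after ZNF655 depletion, and AURKA, CCNB1, CCNB2 and NEK2 after starvation. AURKA (hg38, chr20:56369389-56392337) encodes the Aurora kinase of the centrosome and spindle poles. AURKA had 107 and 110.5 CPM in the INTS13-depleted libraries, 109.6 and 116 CPM in the ZNF655-depleted libraries and 93.8, 95.4, 92.6 and 96.3 CPM in the starved controls, against 129, 132, 137 and 136 CPM in the fed controls. All libraries of these other groups lay below the fed controls, and the starved controls were lowest. Its log2 fold change was -0.30 ± 0.08 (adjusted p = 0.0186) for INTS13, -0.24 ± 0.08 (adjusted p = 0.0578) for ZNF655 and -0.50 ± 0.07 (adjusted p = 1.29e-05) for starvation; errors of log2 fold changes are standard errors. CCNB1, the B-type cyclin that activates CDK1, had 230.2, 232, 228 and 228 CPM in the starved controls, against 278, 301, 313 and 305 CPM in the fed controls (-0.38 ± 0.10 (adjusted p = 0.0107)). CCNB1 was also at -0.37 after INTS13 depletion (adjusted p = 0.0561) and -0.33 after ZNF655 depletion (adjusted p = 0.0965), neither called. NEK2, a kinase of centrosome separation, changed by -0.30, -0.31 and -0.33 for INTS13, ZNF655 and starvation, and all its libraries in these groups (54.6 to 58.3 CPM) lay below the fed controls (65.7 to 76.8 CPM). With 1 library left out, the NEK2 call was kept in 1 of 6 runs for INTS13, 2 of 6 for ZNF655 and 8 of 8 for starvation. CDC25C, a phosphatase that activates CDK1, had 23.3 and 23.8 CPM after INTS13 depletion, against 29.8, 30.9, 32.5 and 31.6 CPM in the fed controls (-0.41 ± 0.12 (adjusted p = 0.0305)). CDC25B, its relative, was the member above 0 after INTS13 depletion, at 0.16 and not called. CDK1 and PLK1 were called in none of the 3.

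Of the 4 checkpoint genes, BUB1 and BUB1B fell in all 3 comparisons, and BUB3 and TTK in none. BUB1 (chr2:110637528-110678063) encodes a kinase of the unattached kinetochore. BUB1 had 150.0 and 162 CPM in the INTS13-depleted libraries, 168 and 175 CPM in the ZNF655-depleted libraries and 160.2, 159, 169 and 153 CPM in the starved controls, against 196, 214, 215 and 210.4 CPM in the fed controls. The groups did not overlap with the fed controls. Its log2 fold change was -0.42 ± 0.07 (adjusted p = 0.0002) for INTS13, -0.28 ± 0.07 (adjusted p = 0.00897) for ZNF655 and -0.38 ± 0.06 (adjusted p = 4.45e-05) for starvation. BUB1B (chr15:40161023-40221123) encodes BUBR1, a subunit of the mitotic checkpoint complex that holds CDC20 inactive. BUB1B had 90.8 and 92.1 CPM in the INTS13-depleted libraries, 98 and 97.9 CPM in the ZNF655-depleted libraries and 102, 103, 107 and 98.8 CPM in the starved controls, against 114, 129, 121 and 124 CPM in the fed controls. Again no library overlapped with the fed controls, and the starved controls lay closest to them. The changes were -0.42 ± 0.08 (adjusted p = 0.000388), -0.32 ± 0.07 (adjusted p = 0.00565) and -0.25 ± 0.06 (adjusted p = 0.00472) in the same order. BUB3, which recruits BUB1 and BUBR1 to kinetochores, was at -0.11, -0.30 and -0.06, and TTK, the MPS1 kinase, at -0.36, -0.28 and -0.26.

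Of the 7 centromere, kinetochore and passenger complex genes, BIRC5 fell in all 3 comparisons, CENPA after INTS13 depletion and CENPE after starvation. BIRC5 (chr17:78214186-78225636) encodes survivin, the subunit that brings Aurora B to centromeres. BIRC5 had 193 and 184 CPM in the INTS13-depleted libraries, 226 and 239 CPM in the ZNF655-depleted libraries and 236, 233, 223 and 236 CPM in the starved controls, against 272, 280.1, 276 and 281 CPM in the fed controls. The INTS13-depleted libraries were lowest, at 67.9% of the fed level. Its log2 fold change was -0.56 ± 0.08 (adjusted p = 3.76e-05) for INTS13, -0.25 ± 0.08 (adjusted p = 0.0421) for ZNF655 and -0.26 ± 0.07 (adjusted p = 0.00764) for starvation. CENPA, the histone H3 variant of centromeres, averaged 22.6 ± 0.34 CPM after INTS13 depletion and 30.2 ± 1.24 CPM in the fed controls (SD, n = 2 and 4; -0.42 ± 0.11 (adjusted p = 0.00925)). CENPE, the kinesin that carries chromosomes to the spindle equator, had 68.1, 57.2, 49.1 and 67.4 CPM in the starved controls, against 108, 118, 103 and 94.8 CPM in the fed controls. That was the largest log2 change of the 15 called members, with a wide error (-0.81 ± 0.22 (adjusted p = 0.0116)). AURKB, NDC80, NUF2 and CENPF were called in none of the 3, at -0.23, -0.31, -0.24 and -0.32 after INTS13 depletion.

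**Figure D3:**
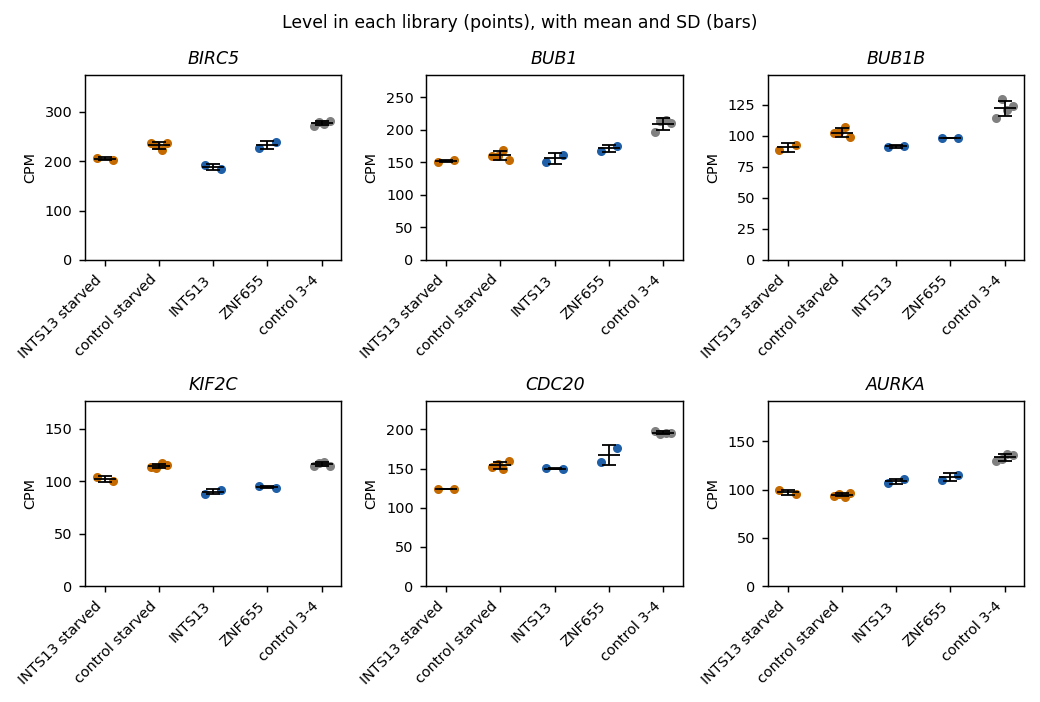
CPM (vertical axes, from 0) of BIRC5, BUB1, BUB1B, KIF2C, CDC20 and AURKA in 5 groups of the starvation set (HDGF-depleted cells are not drawn); points are libraries and bars the group mean and SD, with 2 or 4 libraries a group. Of these groups the fed controls (control 3-4) stand highest in each panel, except that starved controls overlap with them for KIF2C.

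Of the 7 spindle motor and microtubule-binding genes, KIF2C fell after INTS13 and after ZNF655 depletion, and KIF11 and DLGAP5 after starvation. KIF2C (chr1:44739818-44767767) encodes MCAK, a kinesin that depolymerises microtubules at kinetochores. KIF2C had 88.2 and 91.7 CPM in the INTS13-depleted libraries, 95.4 and 94 CPM in the ZNF655-depleted libraries and 114, 113, 117 and 116 CPM in the starved controls, against 114, 118, 118 and 115 CPM in the fed controls. Both depleted groups lay below every control, whereas starved and fed controls overlapped. The changes were -0.37 ± 0.07 (adjusted p = 0.000729) for INTS13, -0.30 ± 0.07 (adjusted p = 0.00621) for ZNF655 and -0.02 ± 0.06 (adjusted p = 0.889) for starvation. KIF11, the kinesin that pushes spindle poles apart, had 230.2, 224, 189 and 207 CPM in starved and 253, 264, 248 and 265 CPM in fed controls (-0.28 ± 0.08 (adjusted p = 0.0163)). TPX2, HMMR, CKAP2 and NUSAP1 were called in none of the 3. HMMR, which binds spindle microtubules, came close after starvation, at -0.35 ± 0.12 (adjusted p = 0.0511).

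Of the 4 genes of anaphase onset, CDC20 alone fell, after INTS13 depletion and after starvation. CDC20 (chr1:43358981-43363203) activates the anaphase-promoting complex. CDC20 had 150.5 and 149 CPM in the INTS13-depleted libraries, 158 and 176 CPM in the ZNF655-depleted libraries and 152, 156, 149 and 159.6 CPM in the starved controls, against 198, 194, 196 and 196 CPM in the fed controls. The fed controls were all between 194 and 198 CPM, and all libraries of the other groups named here were below them. The changes were -0.39 ± 0.09 (adjusted p = 0.0044) for INTS13, -0.23 ± 0.09 (adjusted p = 0.101) for ZNF655, not called, and -0.34 ± 0.07 (adjusted p = 0.00129) for starvation. The ubiquitin-conjugating enzyme UBE2C was at -0.29, -0.35 and -0.16, securin (PTTG1) at -0.30, -0.06 and -0.20, and separase (ESPL1) at -0.01, 0.18 and 0.04 in the same order.

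Of the 5 midzone and cytokinesis genes, KIF23 and PRC1 fell after INTS13 depletion, KIF23 after ZNF655 depletion, and KIF20A, KIF23, ANLN and ECT2 after starvation. KIF23 (chr15:69414246-69448427) encodes the kinesin of centralspindlin, which bundles the midzone. KIF23 had 156 and 163 CPM in the INTS13-depleted libraries, 162 and 161 CPM in the ZNF655-depleted libraries and 147, 145, 139.7 and 134 CPM in the starved controls, against 172, 194, 192 and 192 CPM in the fed controls. Its groups did not overlap with the fed controls, of which replicate 3a was well below the other 3. The changes were -0.23 ± 0.07 (adjusted p = 0.0167), -0.21 ± 0.07 (adjusted p = 0.0318) and -0.41 ± 0.05 (adjusted p = 6.83e-06). Against the controls labelled for ZMYND8, KIF23 was instead at 0.08 after INTS13 and 0.10 after ZNF655 depletion, neither called. The kinesin KIF20A averaged 98.8 ± 2.95 CPM in starved and 128 ± 6.17 CPM in fed controls (SD, n = 4 each; -0.37 ± 0.11 (adjusted p = 0.0162)). ECT2, the exchange factor that activates RhoA for the contractile ring, changed by -0.24 ± 0.07 (adjusted p = 0.0264) under starvation. ANLN, which encodes the ring scaffold anillin, changed by -0.22 ± 0.08 (adjusted p = 0.0485), although its groups overlapped. PRC1, a midzone microtubule bundler whose counting is uncertain, had 4.38 and 5.06 CPM after INTS13 depletion, against 7.19, 6.9, 6.43 and 5.93 CPM in the fed controls (-0.49 ± 0.15 (adjusted p = 0.025)).

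The 2 chromosome genes were called in no comparison of the study. TOP2A, the topoisomerase that untangles sister chromatids, was at -0.16, -0.08 and -0.05 for INTS13, ZNF655 and starvation. MKI67, the proliferation antigen Ki-67 of the chromosome surface, was at -0.05, 0.29 and -0.14. MKI67 had 449 and 439 CPM after INTS13 depletion, 580.3 and 548 CPM after ZNF655 depletion and 437, 403, 397 and 437 CPM in starved controls, against 429, 467, 404 and 544 CPM in the fed controls. The INTS13-depleted libraries lay within the range of the fed controls, the starved controls overlapped with it, and the ZNF655-depleted libraries lay above it.

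CDKN1A, which encodes p21, rose in all 3 comparisons. It averaged 108 ± 1.6 CPM after INTS13 depletion, 65.8 ± 12.8 CPM after ZNF655 depletion and 30.5 ± 2.05 CPM in starved controls, against 17.9 ± 2 CPM in the fed controls (SD, n = 2, 2, 4 and 4), with log2 fold changes of 2.60 (adjusted p = 2.83e-13), 1.88 (adjusted p = 7.97e-10) and 0.78 (adjusted p = 4.56e-05). It also rose in 5 comparisons in which no more than 1 member was called. These were ZEB1 depletion (61.4 ± 10.5 CPM in depleted cells, against 22 ± 2.32 CPM in their controls; log2 fold change 1.48, adjusted p = 7e-07) and ZMYND8 depletion (34.2 ± 1.29 against 20.6 ± 3.69 CPM; 0.74, adjusted p = 0.0297), with no member called, ZNF608 depletion (32.9 ± 4.54 against 22 ± 2.32 CPM; 0.58, adjusted p = 0.0274) and INTS13 depletion among starved cells (115 ± 8.15 against 30.5 ± 2.05 CPM; 1.92, adjusted p = 5.02e-10), with 1 member lower each, and HDGF depletion with glucose (26.7 ± 1.04 against 17.9 ± 2 CPM; 0.58, adjusted p = 0.0135), with 1 member higher. In edgeR, CDKN1A was not called in starved against fed HDGF-depleted cells (0.45, adjusted p = 0.144), where 4 members fell. Nor was it called after TSPYL2 depletion (-0.41, adjusted p = 0.154), where 2 fell, or ZNF609 depletion (0.40, adjusted p = 0.298), where 1 fell. The part of CDKN1A in the member changes was not tested.

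A further list held 97 genes of the same pathway, none of them members, and all were measurable. It covered other kinetochore, passenger complex, condensin, cohesion, anaphase-promoting complex, spindle, cytokinesis and mitotic entry genes, and genes of MuvB, B-MYB and DREAM. After INTS13 depletion 21 fell and none rose (21.6%, where 6.23% of all genes fell; list median -0.20). They included the E2 enzyme UBE2S (99.4 CPM in depleted cells, against 157 CPM in fed controls; log2 fold change -0.66), the centralspindlin partner RACGAP1 (107 against 156 CPM; -0.55), the spindle protein TACC3 (124 against 177 CPM; -0.51) and the condensin subunit NCAPG (162 against 231 CPM; -0.51). After ZNF655 depletion 13 fell and none rose (13.4%, where 4.88% of all genes fell; list median -0.11), among them the anaphase-promoting complex subunit CDC23 (73.9 against 148 CPM; adjusted p = 3.11e-08), the CDK1-inhibiting kinase WEE1 (63.6 against 107 CPM; -0.76), the pocket protein RBL2 (64.1 against 85.9 CPM; -0.42) and the kinesin KIF4A (107 against 143 CPM; -0.41). In starved controls 15 fell (15.5%, where 8.05% of all genes fell) and 3 rose (3.09%, where 8.77% of all genes rose), with a list median of -0.10: CDC25A (240.1 against 353 CPM; -0.56) and KIF20B (59.8 against 87.4 CPM; -0.55) were among those that fell, and CENPH (71.6 against 51.8 CPM; 0.47), MYBL2, which encodes B-MYB (279 against 218 CPM; 0.36), and RBL1 (67.4 against 55.5 CPM; 0.28) rose. RACGAP1, NCAPG, CDC25A, CDC27 and ANAPC7 fell in all 3. In the other 11 simple comparisons 0 to 3 of the 97 fell (up to 3.09%, where 0.187% to 2.6% of all genes fell) and 0 to 2 rose (up to 2.06%, where 0.0674% to 2.32% of all genes rose).

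Starvation was also applied to depleted cells. In starved against fed HDGF-depleted cells 4 members fell and none rose (AURKA, BUB1, CDC20 and KIF23; 1.45% of all genes fell and 2.09% rose; member median -0.19, all genes 0.0024), and all 4 were called in the starved controls too. CDC20 had 145 and 135 CPM in starved and 206 and 196 CPM in fed HDGF-depleted cells (-0.52 ± 0.10 (adjusted p = 0.00435)). KIF23 had 152 and 156 CPM and 205 and 213 CPM in the same groups (-0.44 ± 0.07 (adjusted p = 0.00154)), AURKA changed by -0.42 ± 0.10 (adjusted p = 0.0135) and BUB1 by -0.29 ± 0.08 (adjusted p = 0.0461). In all 4 the groups were separate, as in 24 members in total (lower without overlap, where 27.8% of all genes were). For the counts in other fits that follow, the share of all genes called is not given here. Those counts are therefore not results about the members. The count was 1 or 2 with any 1 of the 4 libraries left out (1 without HDGF replicate 3 or starved replicate 4), 2 with no filter on low counts and 18 with the libraries of the starvation set alone.

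In starved against fed INTS13-depleted cells edgeR called no member and 1.32% of all genes. An unadjusted p under 0.05 was found for 2 members (CDC20 at -0.27, KIF2C at 0.19) and for 2408 of 19275 genes. DESeq2 called 0 members, and the fit on the starvation set alone called 5 (2 higher, 3 lower). The share of all genes called in those fits is not given here, so these counts are not results about the members. The member median was -0.01. The mean log2 CPM of the members relative to the fed controls was -0.25 and -0.29 in the 2 starved INTS13-depleted libraries, against -0.26 and -0.24 in fed INTS13-depleted libraries and -0.18, -0.20, -0.29 and -0.27 in starved controls. BIRC5 had 208 and 203 CPM in starved and 193 and 184 CPM in fed INTS13-depleted cells, and BUB1 had 150.1 and 153 CPM and 150.0 and 162 CPM. Neither BIRC5 nor BUB1 was called.

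**Figure D4:**
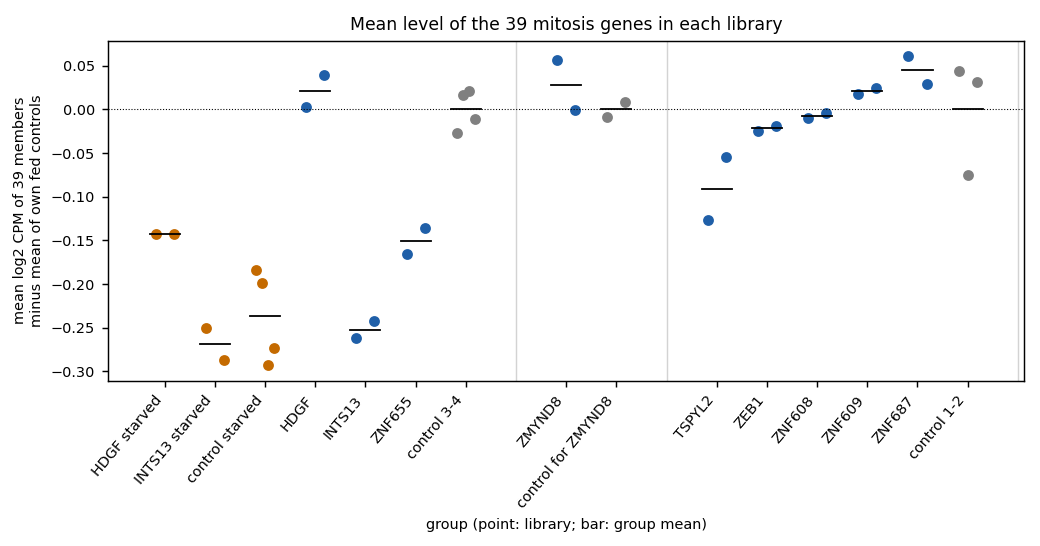
Mean log2 CPM of the 39 mitosis genes in each library minus the mean of the fed controls of its own set (vertical axis); points are libraries, horizontal bars group means, and vertical lines separate the 3 sets. Starved, INTS13-depleted and ZNF655-depleted libraries lie from -0.29 to -0.14, below the fed HDGF-depleted libraries and the fed controls.

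The difference between the INTS13 effect with starvation and that with glucose was tested directly as an interaction. In edgeR no member was called, against 0.0156% of all genes. Of 39 members 35 were above 0, with a median of 0.25 (all genes -0.0013, with 50.3% of them below 0). An unadjusted p under 0.05 was found for 8 members, all above 0, and for 1103 of 19275 genes. BUB1 was at 0.34 ± 0.10 and BIRC5 at 0.38 ± 0.11, both with adjusted p = 0.453. DESeq2 called 1 member and the fit on the starvation set alone called 4, each above 0. The share of all genes called in those fits is not given here, so these counts are not results about the members. Between starved INTS13-depleted cells and starved controls, 1 member fell (1.54% of all genes fell and 2.32% rose): CDC20 had 124 and 124 CPM, against 152, 156, 149 and 159.6 CPM in starved controls (-0.31 ± 0.09 (adjusted p = 0.0491)). That call was lost with any 1 of the 6 libraries left out, with no filter on low counts, with a and b controls summed and with an exon-length offset added after the data were seen.

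HDGF depletion with glucose raised 1 member and lowered none (1.89% of all genes rose and 2.6% fell). ANLN had 271 and 283 CPM in HDGF-depleted cells, against 179, 213, 217 and 199.8 CPM in the fed controls (0.45 ± 0.09 (adjusted p = 0.00278)), with both depleted libraries above every control; without HDGF replicate 4 the adjusted p was 0.103. The member median was 0.02. In starved HDGF-depleted against starved control cells edgeR called no member and 0.659% of all genes. DESeq2 called 1 member (share of all genes not given). In edgeR an unadjusted p under 0.05 was found for 6 members, 5 of them above 0, and for 2126 of 19275 genes. ANLN was nearest, at 0.38 ± 0.09 (adjusted p = 0.0528), with 224 and 228 CPM, against 184, 178, 166 and 167 CPM in starved controls. The HDGF interaction with starvation called no member in edgeR (0% of all genes) or DESeq2. In edgeR no member had an unadjusted p under 0.05, against 909 of 19275 genes.

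After ZMYND8 depletion edgeR called no member and 0.747% of all genes. An unadjusted p under 0.05 was found for 2 members and for 1855 of 19275 genes. DESeq2 called 1 member. The member median was 0.04. ANLN had 237 and 232 CPM in ZMYND8-depleted cells, against 181 and 174 CPM in their controls (0.40 ± 0.11 (adjusted p = 0.0768)), and CCNA2 was at -0.32 ± 0.14 (adjusted p = 0.402). With the ZMYND8 set alone 4 members were called, 3 higher and 1 lower. The shares of all genes called by DESeq2 and in this fit are not given here, so those counts are not results about the members.

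In the set numbered 1 and 2 few members were called. TSPYL2 depletion lowered 2 and raised none (1.08% of all genes fell and 1.14% rose). KIF2C had 111 and 95.7 CPM in TSPYL2-depleted cells, against 146, 132 and 141 CPM in their controls (-0.44 ± 0.07 (adjusted p = 0.00385)). AURKA had 109 and 114 CPM, against 146, 140.0 and 133 CPM (-0.33 ± 0.09 (adjusted p = 0.0456)). That AURKA call was lost with any 1 of the 5 libraries left out, even where the count of called members stayed at 2. KIF2C also fell after ZNF608 depletion, the only member to do so (1.68% of all genes fell and 1.08% rose), at 114 and 109 CPM against the same controls (-0.33 ± 0.07 (adjusted p = 0.0119)). In these 3 cases the depleted libraries lay below all controls. After ZNF609 depletion 1 member fell (0.379% of all genes fell and 0.192% rose): NEK7 (chr1:198156994-198322420), a kinase of centrosome and spindle function, had 55.2 and 46.6 CPM, against 107, 77.4 and 82.2 CPM (-0.81 ± 0.16 (adjusted p = 0.0119)). In edgeR, ZEB1 depletion called no member (3.77% of all genes) and ZNF687 depletion none (0.254% of all genes). After ZEB1 depletion 5 of 39 members and 4255 of 19275 genes had an unadjusted p under 0.05. After ZNF687 depletion 5 members and 1751 genes did. DESeq2 called 1 member for each (share of all genes not given). The TSPYL2 member median was -0.17 (all genes -0.0065), and the other 4 medians lay between -0.01 and 0.05. After TSPYL2 depletion 30 of 39 members had a log2 fold change below 0, as did 50.8% of all genes.

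In this set libraries of the same number deviated together, and a fit with the number as a block gave more calls in all 35 libraries: 16 for TSPYL2 (3 higher, 13 lower), 2 each after depletion of ZEB1, ZNF608 and ZNF609, and 1 for ZNF687. For this fit and the others below, the share of all genes called is not given. Their counts are therefore not results about the members. Within the set alone the blocked fit called 1 member after ZNF609 depletion and 0 for the other 4. The TSPYL2 calls were 0 without TSPYL2 replicate 2 and 1 without control 2a. The ZNF608 call was lost without either ZNF608 library, and the NEK7 call without either ZNF609 library. For ZEB1 the count was 19 (9 higher, 10 lower) without ZEB1 replicate 2, 5 without control 1 and 1 without ZEB1 replicate 1; for ZNF609 it was 2 and for ZNF687 1 without control 1.

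Libraries numbered 1 differed from those numbered 2 in the members themselves. CDK1 had 468 and 254 CPM in ZEB1-depleted libraries 1 and 2, against 383, 228 and 232 CPM in controls 1, 2a and 2b, and PTTG1 had 291 and 138 CPM against 215, 131 and 126 CPM. The long MKI67 went the other way, with 102 and 232 CPM in ZEB1-depleted libraries 1 and 2, against 151, 229 and 258 CPM in controls 1, 2a and 2b. In TSPYL2-depleted cells MKI67 had 216 and 528 CPM and was not called, at 0.80 ± 0.28 (adjusted p = 0.132). Across the 39 members, which share libraries, log2 fold change and summed exon length had a Spearman correlation of 0.55 for TSPYL2 and -0.46 for ZEB1 (0.05 and -0.27 across 19275 genes). An exon-length offset added after the data were seen left 1 TSPYL2 call and gave 2 ZEB1 calls. The part of the library number and of exon length in these values was not tested further.

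**Figure D5:**
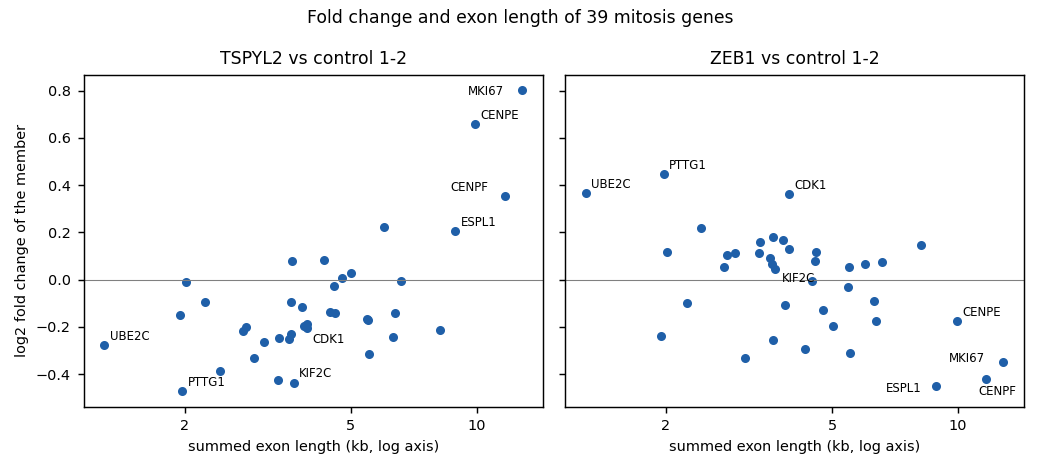
log2 fold change of each of the 39 mitosis genes (points) after TSPYL2 depletion (left) and ZEB1 depletion (right) against summed exon length in kb on a log axis. Long genes such as MKI67 and CENPF lie above 0 after TSPYL2 depletion and below 0 after ZEB1 depletion.

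Over all 16 comparisons, the 2 interactions included, 19 of the 39 members were never called. KIF2C, AURKA, BUB1, CDC20 and KIF23 were each called lower in 4 comparisons, and BUB1B, BIRC5 and NEK2 in 3. ANLN was the only member called in both directions and the only one called higher.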

How the data were processed

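Raw counts per gene were deposited by the authors as 1 table of 35 libraries, made before duplicate removal per the labels. Reads came from a stranded total RNA kit, per the labels' protocols, and FastQC, cutadapt, STAR and the hg38 build are named in the submitters' processing notes. The counting tool and its strand setting are not given in the sources used. The deposited table also gives other values per gene, positions and summed exon lengths. Library sizes were the column sums, and CPM were scaled by TMM. Tests used edgeR 4.0.16 (R 4.3.3): genes passing filterByExpr by group, 15 group means fitted to all 35 libraries by quasi-likelihood (20 residual degrees of freedom), and Benjamini-Hochberg adjustment over 19275 genes with calls under 0.05. Standard errors were derived from the F statistic. On simulated data for INTS13 against its fed controls (19095 genes), 48% of genes changed 0.67-fold and 16% of those changed 0.75-fold were recovered, with 2 false calls.

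The members and lists were chosen with earlier results of these data known. Members named are those called, with their neighbours by role. Replicates with the same number were checked for shared deviations: in the set numbered 1 and 2 all 15 pairs of groups correlated over 0.1 (median 0.716), in the starvation set (numbered 3 and 4, without ZMYND8 and its controls) only 5 of 21 did, and the 1 pair of the ZMYND8 set did not. Control numbers are those of the descriptions, since titles differ from them in the set numbered 1 and 2. No 2 libraries were duplicates. Alternatives were DESeq2 1.42.0, other scaling, no filter on low counts, replicate blocks, fits by set, summed controls, other controls and libraries left out.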

Additional observations from a re-analysis of the deposited data

Results flagged for a closer look

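Within groups of 4 libraries, 3 of 78 combinations of member and group held a library far from the other 3, where chance gives about 1 in 20. TOP2A was low in fed control 3a, at 489.3 CPM, against 519 to 522 CPM in the other fed controls. KIF23 was low in the same library, at 172.4 CPM, against 192 to 194 CPM. CENPF was low in starved control 4a, at 236.7 CPM, against 400.2 to 433 CPM in the other starved controls.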

How the results depend on the processing

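With 2 depleted libraries a group, the counts of called members moved with the fit, while the direction held in all alternatives but 2: KIF23 was at 0.0848 after INTS13 and 0.105 after ZNF655 depletion against the controls labelled for ZMYND8. Against those controls ZNF655 called 3 members and HDGF 3. DESeq2 called 5 for TSPYL2, 1 for ZEB1, 2 for ZNF609, 1 for ZNF687, 11 for ZNF655, 1 for ZMYND8, 1 for HDGF among starved cells and 1 for the INTS13 interaction. Summing a and b controls left 1 for TSPYL2, 6 for INTS13, 3 for ZNF655, 3 for starvation and 0 for INTS13 among starved cells. Without the low-count filter there were 3 for ZEB1, 0 for ZNF608, 1 for ZNF687, 0 for ZNF655, 2 for starvation of HDGF-depleted cells, 0 for INTS13 and 1 for HDGF among starved cells. The cause was not tested. Shares of all genes called are not given for these fits or those below, so the counts are not results about the members.

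The number pairs libraries only in the set numbered 1 and 2; elsewhere it is shared by label alone. With the replicate block in all libraries the counts were 16 for TSPYL2, 1 for ZNF687, 2 for each of ZEB1, ZNF608 and ZNF609, 21 for INTS13, 3 for HDGF, 17 for ZNF655, 3 for ZMYND8, 3 and 10 for starvation of INTS13- and HDGF-depleted cells, and 1 for HDGF among starved cells. The title numbering gave 7 for ZEB1, 2 for ZNF609 and 1 for ZNF687 with the block. Fits on the own set alone called 0 for TSPYL2, ZNF608 and ZNF609, 25 for INTS13, 5 for HDGF, 21 for ZNF655, 27 for starvation, 5 and 18 for starvation of INTS13- and HDGF-depleted cells, 4 and 5 for INTS13 and HDGF among starved cells, 4 for the INTS13 interaction and 4 for ZMYND8. With a replicate block added these became 0 for TSPYL2 and ZNF608, 24 for INTS13, 5 for HDGF, 21 for ZNF655, 27 for starvation, 5 and 18, 4 and 3, 4 for the interaction and 7 for ZMYND8. The exon-length offset, added after the data were seen, gave 1 for TSPYL2, 2 for ZEB1, 11 for ZNF655 and 0 for INTS13 among starved cells. With the replicate block as well it gave 12 for TSPYL2, 3 for each of ZEB1 and ZNF608, 2 for ZNF609, 1 for ZNF687, 24 for INTS13, 4 for HDGF, 20 for ZNF655, 2 for ZMYND8, 26 for starvation, 3 and 9 for starvation of INTS13- and HDGF-depleted cells, and 2 and 1 for INTS13 and HDGF among starved cells.

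Leaving out 1 library at a time gave 4 to 11 for INTS13, 1 to 7 for ZNF655, 11 to 15 for starvation, 0 to 1 for HDGF, 1 to 2 for starvation of HDGF-depleted cells, 0 for INTS13 among starved cells, 0 to 19 for ZEB1, 0 to 2 for TSPYL2 and ZNF609, and 0 to 1 for ZNF608 and ZNF687. Where that left a lone library, it was assumed to vary like the other groups. Depth limited NUSAP1 most, at 5 to 27 counts per library. Of the values of single called members under these alternatives, 528 kept the call, 156 kept the direction without the call and 2 turned.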
